A study of Mus musculus with 6 samples.

Results

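Aminoacyl-tRNA synthetases are the enzymes that join each amino acid to its transfer RNAs, and the 36 synthetase genes described here, 20 cytosolic and 16 mitochondrial, were measured in the dorsal forebrain of mouse embryos on 1-colour Agilent arrays. They were taken by symbol from the authors' deposited table, with 1 probe per gene, the brightest over the 6 arrays, and all 36 were among the 21224 rows tested (1 row per gene, or per probe without a gene name). The study, whose title names Wnt/b-catenin signalling and the successive fates of cortical precursors, compared 3 control with 3 mutant embryos at E11.5, the start of cortical neurogenesis. Each array holds RNA of 1 embryo, and each of 3 litters gave 1 control and 1 mutant embryo. The labels call the genotype control or mutant only, and the mutated gene, the allele, any Cre driver, the strain and what the controls carry are not given in the sources used here. The tissue was whole dissected dorso-medial pallium, so that fewer cells of a type and less RNA per cell cannot be told apart in any value below.

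A cell needs a synthetase for each amino acid at the ribosomes of the cytosol and again inside the mitochondrion, and most of the mitochondrial enzymes come from nuclear genes of their own, here those whose symbols end in 2. Gars and Kars each encode both forms, Eprs carries the glutamyl and the prolyl enzyme in 1 protein, and mitochondria have no glutaminyl enzyme but convert mischarged glutamyl-tRNA instead. Several cytosolic enzymes are held together in the multisynthetase complex. When uncharged tRNAs build up, the kinase Gcn2 raises the translation of the transcription factor Atf4, whose targets include several cytosolic synthetases, amino acid transporters and enzymes of amino acid synthesis.

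Levels below are log2 of the processed signal minus the 75th percentile of the array, and a difference is the mutant mean minus the control mean on that log2 scale. Levels of different probes are not compared with each other. Emx1 and Pax6, markers of dorsal forebrain progenitors, were well above background on all 6 arrays, although their levels differed between the groups (Emx1 by -0.81 and Pax6 by 0.33, as described with the other markers). Between 65.8% and 70.1% of spots were well above background, and no spot was saturated. Litter 1 lay on 1 slide, and litters 2 and 3 lay on the other. Of the 36 synthetase probes, 35 were well above background on all 6 arrays, and that of Nars2, for mitochondrial asparagine, on 5.

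No synthetase gene passed the test over all rows (limma with Benjamini-Hochberg adjustment, adjusted p under 0.05), which 7 of the 21224 rows did (0.033%). At an adjusted p under 0.1 the count was also 0, beside 0.372% of rows. The differences nevertheless lay mostly on 1 side of 0. They were negative in 34 of 36 synthetase genes, or 94.4%, beside 45% of all rows, a share of rows that was 61.4% with median centring of the arrays and 35.8% with normexp background correction. The median difference was -0.15 over the synthetases and 0.02 over all rows. The highest mutant lay below the lowest control in 17 synthetase genes (47.2%), beside 11.9% of all rows, and no synthetase gene had its mutants all above its controls, beside 12.9% of rows. That count of 17 was 14 with normexp background correction, 14 with quantile normalization, 13 in the authors' log2 values and 18 with median centring. It ran from 17 to 24 when 1 embryo was left out, which makes separation easier. The shares of all rows under these alternatives were not counted. An unadjusted p under 0.05 with a lower mutant mean was found in 6 genes (16.7%), beside 7.42% of rows, and with a higher mutant mean in 0, beside 9.47%. The count of 6 was 3 without control 3 (3.96% of rows), 13 with median centring (11.1%), 13 with trend and robust variance (8.33%) and 12 in the authors' log2 values (9.19%). With litter as a block in the fit, 9 were lower at an unadjusted p under 0.05, beside 7.54% of rows. In either direction and without the block, 6 of 36 is close to the 16.9% of all rows. The 36 genes were measured in the same 6 embryos and are not independent observations. In the authors' deposited table, the log2 ratio was below 0 in 31 of the 36, beside 53.8% of its probes.

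Signal level alone goes with the sign of a difference on these arrays. Among the 8324 rows with a mean level above 0, the median difference was -0.02, and 55.9% were negative. Among the 12900 rows at or below 0, the median was 0.08, and 38.0% were negative. The synthetases lay below both. The 24 with a level above 0 had a median of -0.15, with 22 negative, and the 12 at or below 0 had a median of -0.19, with 12 negative.

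**Figure D1:**
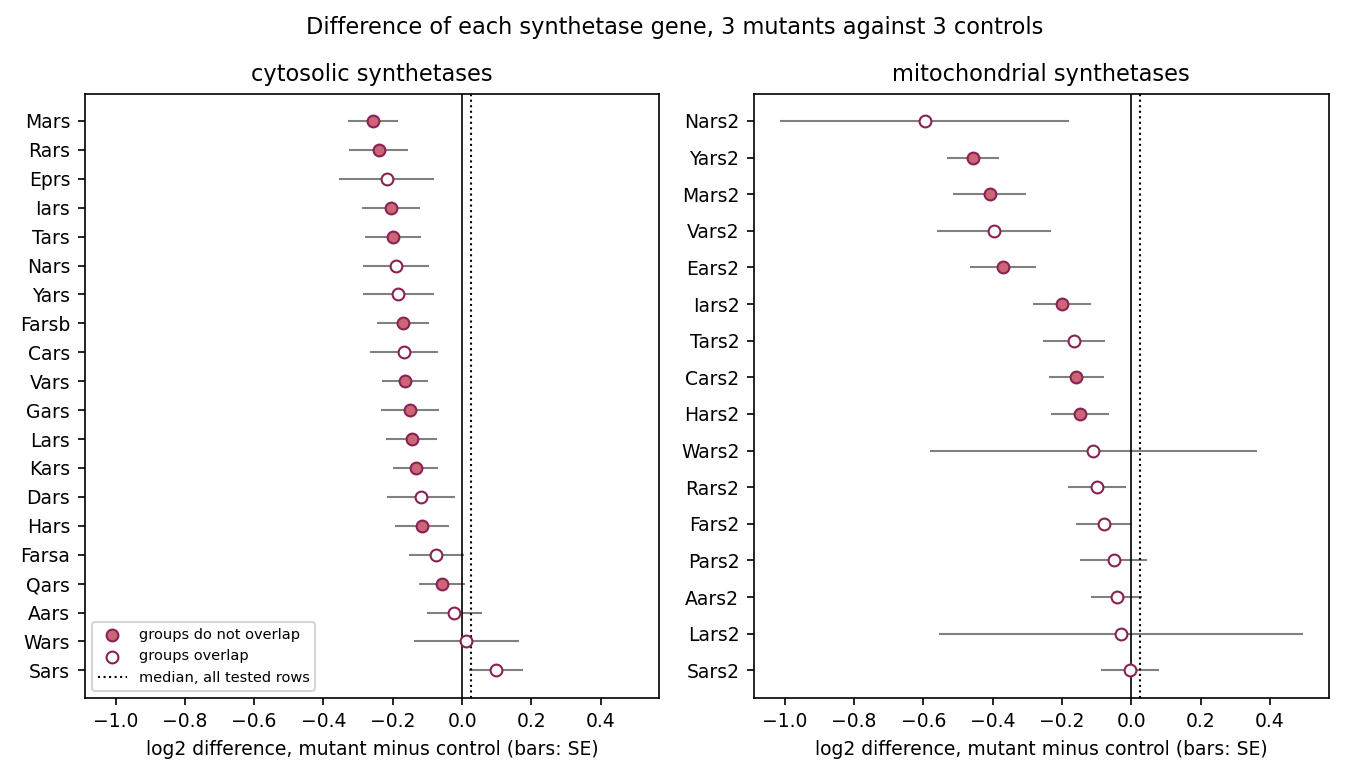
Difference of each synthetase gene (mutant minus control, log2, with SE from the limma fit over 3 and 3 embryos), cytosolic on the left and mitochondrial on the right. Filled points are genes whose 2 groups do not overlap, 17 in all, and 34 of the 36 points lie left of 0.

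The 2 classes had nearly the same median in the fit as reported, but with normexp background correction the medians were -0.15 (cytosolic) and -0.09 (mitochondrial). The 20 cytosolic genes had a median difference of -0.16, with 18 negative and 11 lower without overlap. The 16 mitochondrial genes had a median of -0.15, with 16 negative and 6 lower without overlap. Lower without overlap were thus 55.0% of the cytosolic and 37.5% of the mitochondrial genes, beside 11.9% of rows, and lower at an unadjusted p under 0.05 were 3 of 20 and 3 of 16, beside 7.42% of rows. The mitochondrial differences were spread more widely, from -0.60 to -0.00, against -0.26 to 0.10 for the cytosolic ones.

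By embryo, the cytosolic median deviation from the control mean was -0.04, -0.03 and 0.07 in controls 1, 2 and 3, and -0.15, -0.18 and -0.08 in mutants 1, 2 and 3. The 3 mutants thus lay below the 3 controls, with mutant 3 nearest to them. The mitochondrial median was 0.06, -0.06 and 0.03 in the controls and -0.21, -0.20 and -0.06 in the mutants, where mutant 3 and control 2 overlapped. Over all rows the 6 medians stayed between -0.00 and 0.04. Within litters, 26 synthetase genes were lower in the mutant in 3 of 3 litters, 7 in 2, 2 in 1 and 1 in 0. The shares of all rows by litter were not counted, so these counts have no background beside them. On the slide of litter 1 alone, the median difference was -0.11 for the cytosolic and -0.25 for the mitochondrial genes, and on the other slide it was -0.16 and -0.12.

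**Figure D2:**
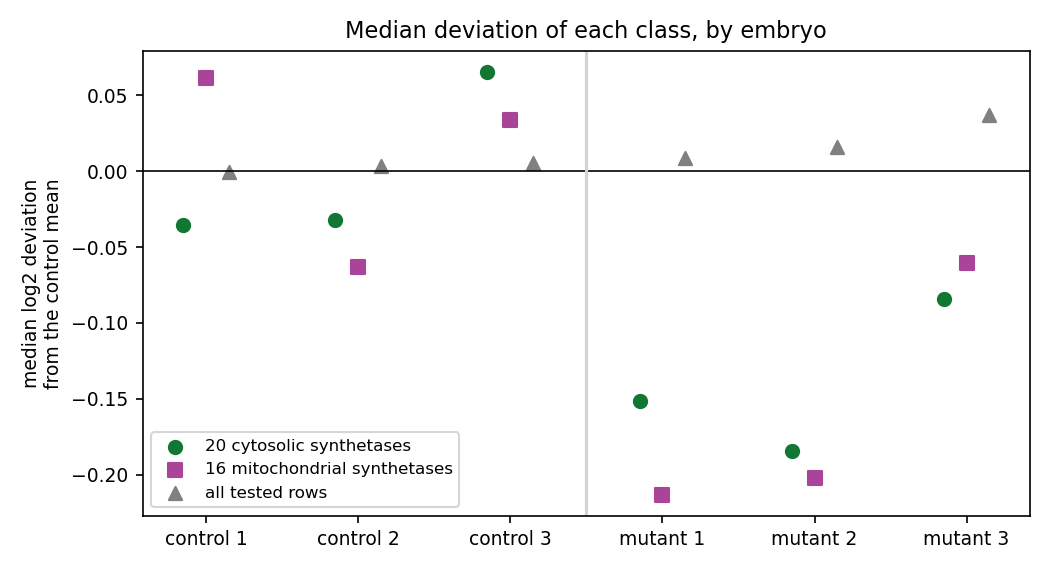
Median log2 deviation from the control mean in each embryo, for the 20 cytosolic genes (circles), the 16 mitochondrial genes (squares) and all tested rows (triangles). The cytosolic points of the 3 mutants lie below those of the 3 controls, and the mitochondrial point of mutant 3 (-0.06) lies level with that of control 2 (-0.06).

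The cytosolic enzymes of the multisynthetase complex are represented by 8 genes (Dars, Eprs, Iars, Kars, Lars, Mars, Qars and Rars). All 8 had negative differences, with a median of -0.18, and in 6 of 8, beside 11.9% of rows, the groups did not overlap. The 12 cytosolic genes outside the complex had a median of -0.16, with 10 negative and 5 (41.7%) lower without overlap. These values are side by side only, since the difference between complex and other enzymes was not tested.

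Mars, which charges methionine and so serves both initiation and elongation, had levels of 1.53, 1.49 and 1.63 in controls 1, 2 and 3 and of 1.24, 1.34 and 1.30 in mutants 1, 2 and 3. All 3 mutants lay below all 3 controls. The difference was -0.26 (SE 0.07), which is 16.3% lower, and the adjusted p was 0.208 in limma, with a range of 0.0976 to 0.558 over the alternatives. Its probe lies at chr10:126733940-126733999 (mm9).

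Rars, the arginine enzyme of the complex, had levels of -0.97, -1.12 and -0.94 in the controls and of -1.19, -1.35 and -1.21 in the mutants. The groups did not overlap, though control 2 came within 0.1 of the nearest mutant. The difference was -0.24 (SE 0.09), with an adjusted p of 0.258 in limma.

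Vars, the valine enzyme, which lies outside the 8 complex genes, had 1.96, 1.89 and 1.98 in the controls and 1.75, 1.75 and 1.82 in the mutants. Here too the groups did not overlap, and the spread within each was small (SD 0.04 in both). The difference was -0.16 (SE 0.07), with an adjusted p of 0.293 in limma.

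Gars, whose 1 gene gives both the cytosolic and the mitochondrial glycine enzyme, had the brightest cytosolic probe. Its levels were 5.17, 5.17 and 5.30 in the controls and 5.07, 4.97 and 5.15 in the mutants, so that mutant 3 lay just under controls 1 and 2. The difference was -0.15 (SE 0.08), with an adjusted p of 0.414 in limma. Kars, the other gene of both compartments, had a difference of -0.13 (SE 0.07), and its 3 mutants lay below its 3 controls.

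Among the remaining cytosolic genes, Tars (-0.20), Iars (-0.21), Farsb (-0.17), Lars (-0.15), Hars (-0.12) and Qars (-0.06) were lower without overlap. In Iars, Hars and Qars the margins were very small. Eprs (-0.22), Nars (-0.19), Yars (-0.18), Cars (-0.17), Dars (-0.12) and Farsa (-0.07) had overlapping groups. Farsa and Farsb encode the subunits of 1 enzyme, for phenylalanine.

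At the probes used, Sars, Wars and Aars had the highest differences of the cytosolic genes, with Qars (-0.06) and Farsa (-0.07) next and close to Aars. Sars, the serine enzyme, was the only synthetase gene with a higher level in the mutant of every litter. It had 3.43, 3.53 and 3.56 in the controls and 3.52, 3.64 and 3.67 in the mutants. The groups overlapped, the difference was 0.10 (SE 0.08, limma adjusted p 0.554), and it stayed positive under all 17 alternatives. Aars, the alanine enzyme, had a difference of -0.02 (SE 0.08), which turned positive under quantile normalization and in the authors' values. Over the alternatives it ran from -0.15 to 0.02. Its second probe, a far dimmer one, had -4.94, -5.21 and -5.23 in the controls and -5.55, -5.33 and -5.32 in the mutants. There the groups did not overlap, at a difference of -0.27. Wars, the tryptophan enzyme, had 4.10, 3.95 and 4.12 in the controls and 4.33, 3.78 and 4.09 in the mutants. Mutant 1 was its highest embryo and mutant 2 its lowest, the difference was 0.01 (SE 0.15), and it was -0.12 without mutant 1 and -0.08 with median centring.

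Promoter sequences were read for a motif of Atf4. The composite site of Atf4 and C/EBP factors was searched as TGATGCAA on both strands in windows from 250 bases before to 50 after each start site (RefSeq, GRCm38.p6), which held 27 of the 36 genes, 13 cytosolic and 14 mitochondrial. It occurred in 4 cytosolic genes (Aars, Iars, Tars and Yars) and in 0 mitochondrial genes, beside 1.03% of 27025 genes. With the sixth letter free (TGATGNAA, which contains the first motif) the count was 5, with Gars added, beside 4.51% of genes. Shown here are the synthetase matches that lie before the start site, with those of 3 genes of the amino acid response, chosen after their values were seen because their differences are large. Of that response, Atf3 (-0.06), Chac1 (-0.13), Nupr1 (0.07) and Slc7a11 (0.59) also hold TGATGCAA before the start. Each is written on the strand of its gene, and the capitals mark the motif or, as TTGCATCA and TTTCATCA, its complement.
Aars, chr8:111033710-111033757, plus strand: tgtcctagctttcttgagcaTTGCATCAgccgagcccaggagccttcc
Tars, chr15:11399659-11399693, minus strand: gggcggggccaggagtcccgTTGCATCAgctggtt
Gars, chr6:55037951-55037998, plus strand: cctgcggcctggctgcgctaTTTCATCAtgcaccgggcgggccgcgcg
Asns, chr6:7693210-7693252, minus strand: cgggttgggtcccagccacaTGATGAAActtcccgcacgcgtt
Pycr1, chr11:120643824-120643871, minus strand: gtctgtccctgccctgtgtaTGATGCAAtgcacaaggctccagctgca
Vldlr, chr19:27216800-27216847, plus strand: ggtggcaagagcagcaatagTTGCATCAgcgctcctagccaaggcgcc

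Whether the matches go with the difference of a gene was not tested. The 4 genes with TGATGCAA had a median difference of -0.19, and the other genes with a promoter window had one of -0.15. Aars, with the motif 105 bases before its start, had -0.02 (-0.27 at its dimmer second probe). Tars, with the motif 8 bases before its start, had -0.20. In Iars and Yars the motif lies after the start site. The E-box CACGTG, searched in the same windows, was in 5 genes (Aars, Farsb, Iars, Tars and Ears2), beside 8.09% of genes, and overlaps neither of the other motifs in its letters. A match describes letters in a window and is no evidence of binding.

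Among the mitochondrial enzymes, Yars2, which charges tyrosine, had the smallest p of all 36 genes. Its levels were 0.84, 0.98 and 0.97 in the controls and 0.43, 0.53 and 0.46 in the mutants. The gap between the lowest control and the highest mutant was wider than the spread within either group (SD 0.08 and 0.05). The difference was -0.46 (SE 0.07), which is 27.1% lower, and the limma adjusted p was 0.105. It passed the threshold with normexp background correction (adjusted p 0.0448, where 0.57% of all rows passed) and with a variance trend and robust variance (0.0468, where 0.678% passed), and the adjusted p ran from 0.0448 to 0.467 over the alternatives. The probe lies at chr16:16307393-16307452 (mm9). In the authors' deposited table Yars2 had a log2 ratio of -0.49 and an fdr of 0.0325, the only synthetase gene with an fdr under 0.05 there (1 of 36, beside 1.31% of the probes in the table).

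Ears2, the mitochondrial glutamate enzyme, which also supplies the mischarged tRNA of the indirect glutamine route, had -0.43, -0.60 and -0.46 in the controls and -0.79, -1.01 and -0.80 in the mutants. In each litter the mutant was lower by a like amount, since the embryos of litter 2 were the lowest of both groups. The difference was -0.37 (SE 0.10), 22.6% lower, with an adjusted p of 0.189 in limma and an fdr of 0.0548 in the authors' deposited table. The probe lies at chr7:129182565-129182624 (mm9).

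Mars2, the mitochondrial methionine enzyme, had -4.20, -4.00 and -4.30 in the controls and -4.64, -4.46 and -4.62 in the mutants. The groups did not overlap, at a signal far below the 75th percentile. The difference was -0.41 (SE 0.11), with an adjusted p of 0.189 in limma, but it was -0.04 with normexp background correction, whose offset shrinks differences at dim probes. The probe lies at chr1:55295642-55295701 (mm9).

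**Figure D3:**
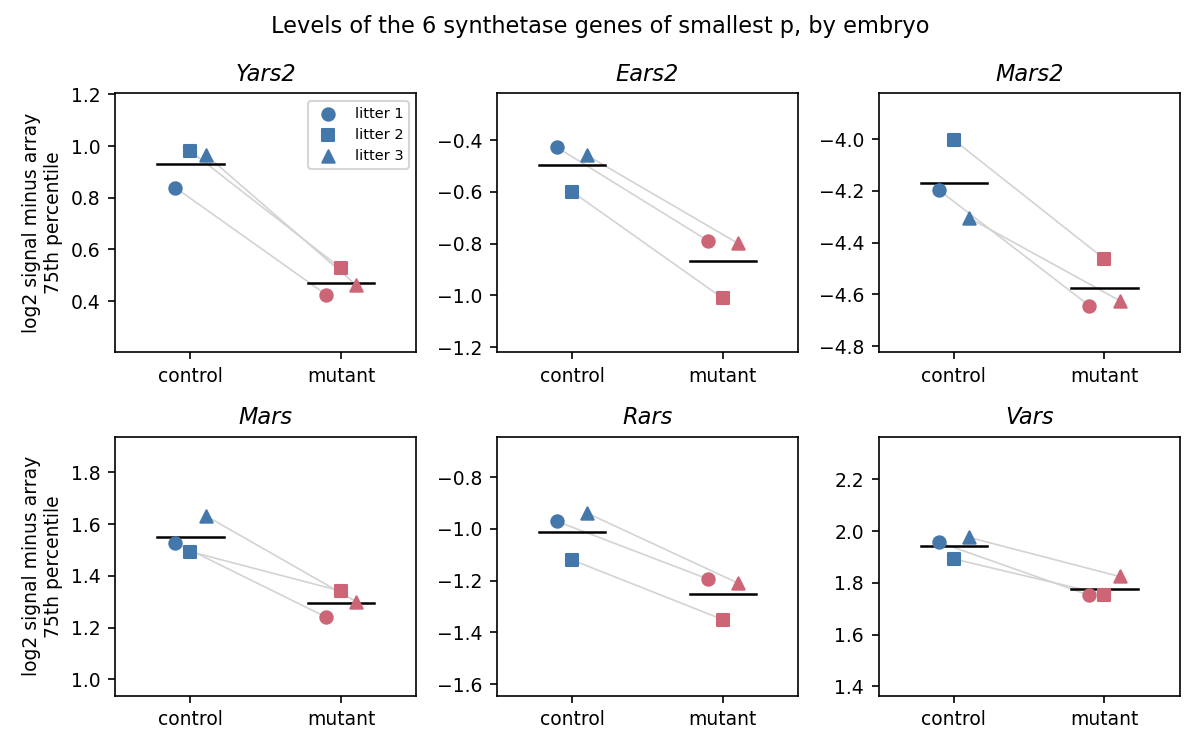
Level of the 6 synthetase genes with an unadjusted p under 0.05 in each embryo (log2 signal minus the 75th percentile of the array), with group means as bars and grey lines joining the control and mutant of a litter. In every panel the 3 mutants lie below the 3 controls, and the vertical axes span the same range, set around each gene's own levels.

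Tars2, for threonine, had the brightest mitochondrial probe. It had 3.004, 3.10 and 3.19 in the controls and 2.90, 2.85 and 3.05 in the mutants, so that mutant 3 lay above control 1. The difference was -0.16 (SE 0.09), with an adjusted p of 0.407 in limma. Iars2 (-0.20), Cars2 (-0.16) and Hars2 (-0.15) were lower without overlap, in Cars2 and Hars2 by very small margins. Rars2 (-0.10), Fars2 (-0.08), Pars2 (-0.05), Aars2 (-0.04) and Sars2 (-0.00) had overlapping groups and were close to 0, and Pars2 and Sars2 changed sign in at least 1 alternative.

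Of 17 pairs of a cytosolic and a mitochondrial gene for the same amino acid, the mitochondrial gene had the more negative difference in 10. Eprs and Fars2 each recur in these pairs, so the pairs are not all separate. The pairs that differed most were those of asparagine, tyrosine and valine. In the tyrosine pair, the difference of Yars2 was more negative than that of Yars by -0.27. The log2 ratio of Yars2 to Yars, centred on the controls, was -0.02, -0.06 and 0.08 in the controls and -0.16, -0.26 and -0.41 in the mutants, so the groups did not overlap. Yars itself had -3.08, -2.91 and -3.06 in the controls and -3.36, -3.16 and -3.08 in the mutants, with mutant 3 among the controls and a difference of -0.18 (SE 0.10).

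In the valine pair, Vars2 had 0.04, -0.48 and 0.01 in the controls and -0.43, -0.69 and -0.49 in the mutants. Control 2 lay within the mutant range, and the difference was -0.40 (SE 0.16, limma adjusted p 0.304). At its other probe control 2 was again the lowest control, but there the groups did not overlap, by a very small margin. Control 2 had -1.490 and mutant 1, the highest mutant, -1.494, and the difference was -0.42. The asparagine pair rested on 1 embryo. Nars had 1.58, 1.68 and 1.78 in the controls and 1.35, 1.52 and 1.59 in the mutants, a difference of -0.19 (SE 0.10). Nars2 had -6.13, -6.49 and -6.64 in the controls and -7.96, -6.45 and -6.64 in the mutants. Only mutant 1 stood below the rest, and the difference of -0.60 (SE 0.42) was 0.02 on slide 2 alone, which leaves out litter 1, and 0.10 with normexp background correction. Of the remaining pairs, only Rars and Rars2 had a ratio that did not overlap, in the opposite direction to the tyrosine pair (0.14). Ratios of other gene pairs were not computed, so no share stands beside these pairs.

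Lars2 and Wars2, the mitochondrial leucine and tryptophan enzymes, varied more among embryos than between groups, as did Nars2. Within a group, the widest range of these 3 genes was over 1 log2 unit, which held for 12.1% of all rows, while the median of the widest range was 0.20 over the synthetases and 0.35 over all rows. Lars2 had 0.03, -1.32 and -0.04 in the controls and -1.37, -0.03 and -0.02 in the mutants. Control 2 and mutant 1, of different litters and slides, shared the low level. In 4 of the 21224 rows, these embryos lay apart from the rest by over 1 log2 unit, in either direction. Wars2 had -1.56, -2.70 and -1.46 in the controls and -1.67, -2.82 and -1.56 in the mutants. Both embryos of litter 2 shared its low level. In 16 of the 21224 rows, control 2 and mutant 2 lay apart from the other 4 by over 1 log2 unit, in either direction. The second Wars2 probe, a dimmer one, had -5.29, -5.51 and -5.40 in the controls and -5.26, -5.92 and -5.46 in the mutants, with litter 2 again lowest but by less. The group differences were -0.03 (SE 0.53) for Lars2 and -0.11 (SE 0.47) for Wars2.

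**Figure D4:**
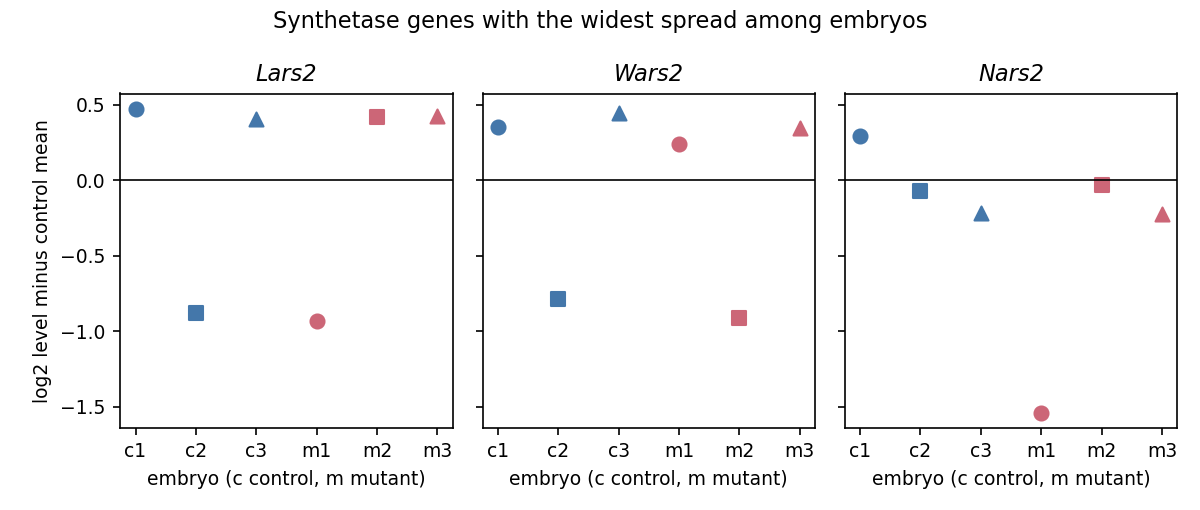
Level of Lars2, Wars2 and Nars2 in each embryo as log2 deviation from the control mean (c control, m mutant, numbered by litter). The low embryos are control 2 and mutant 1 for Lars2, the 2 embryos of litter 2 for Wars2, and mutant 1 for Nars2.

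Genes of neighbouring steps were read from lists of the same pathway, none of whose members passed the adjusted p over all rows. The amino acid response list held 28 genes, with 21 negative, a median of -0.12, and 9 lower (32.1%) and 1 higher (3.57%) at an unadjusted p under 0.05. Over all rows, 45% were negative, 7.42% lower and 9.47% higher. The lower ones include enzymes of amino acid synthesis and transporters. Cth, which makes cysteine from cystathionine, had -0.79, -0.71 and -0.59 in the controls and -1.38, -1.42 and -1.49 in the mutants, a difference of -0.74 (SE 0.08, limma adjusted p 0.0758). Pycr1, of proline synthesis, had -1.46, -1.45 and -1.36 against -1.85, -1.82 and -1.94, a difference of -0.45 (SE 0.07, adjusted p 0.105 in limma). In both genes the groups were far apart beside their spread.

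The other lower genes of that list were Psat1 (-0.57) and Shmt2 (-0.34) of serine and glycine metabolism, Asns (-0.49), the asparagine synthetase, the transporter genes Slc7a5 (-0.43), Slc7a1 (-0.41) and Slc3a2 (-0.26), and Eif4ebp1 (-0.36), an inhibitor of cap-dependent translation. Vldlr, a lipoprotein and reelin receptor that Atf4 can induce, went the other way, with -0.01, 0.15 and 0.06 in the controls and 0.99, 1.14 and 1.22 in the mutants. Its difference was 1.05 (SE 0.09, limma adjusted p 0.0551). Psph (0.17), of serine metabolism, was also higher without overlap, at an unadjusted p of 0.0872 in limma. In the list, 10 genes were lower without overlap (35.7%, beside 11.9% of rows) and 2 higher (7.14%, beside 12.9%). With a variance trend and robust variance, 3 genes of the list passed, beside 0.678% of rows, namely Vldlr (adjusted p 0.0114), Cth (0.0311) and Psat1 (0.0493). Atf4 itself differed by -0.10 (SE 0.14), at the level of its RNA only, and its target Ddit3 by 0.09 (SE 0.15).

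The list of tRNA maturation and modification held 18 genes and had a median of -0.20, with 14 negative (77.8%, beside 45% of rows) and 8 lower at an unadjusted p under 0.05 (44.4%, beside 7.42%). Trmt61a, which methylates adenosine in tRNA, differed by -0.47 (SE 0.09), with 1.93, 1.96 and 2.04 in the controls and 1.66, 1.38 and 1.48 in the mutants. Nsun2, a cytosine methyltransferase of tRNA, differed by -0.32 (SE 0.07), and Rpp38, a subunit of RNase P, by -0.26 (SE 0.06). In all 3 the groups did not overlap.

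Of the scaffold proteins of the multisynthetase complex, Aimp2 differed by -0.25 (SE 0.10), Eef1e1 by -0.14 (SE 0.09) and Aimp1 by -0.05 (SE 0.07). Of the 4 genes of indirect charging and initiator formylation in mitochondria, Gatc (-0.22) and Qrsl1 (-0.19), subunits of the amidotransferase, were lower without overlap, while Gatb (0.01), the third subunit, and Mtfmt (0.09), the formyltransferase, were not. The list of editing and related genes held 6 and had a median of -0.03. The 3 of smallest p were Yrdc (-0.36), Dtd1 (-0.21) and Prorsd1 (0.22), of which Yrdc serves tRNA modification and not editing.

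The other lists hold genes of translation and of amino acid sensing. The 9 mitochondrial translation factors had a median of -0.05, with Tsfm at -0.23, Tufm at -0.16 and Mtif2 at 0.31. The list of 8 cytosolic elongation factor genes includes Eef2k (-0.35), a kinase gene and no elongation factor itself. The list median was -0.04, which was 0.01 in the authors' values, and Eif5a had the smallest p (-0.44, SE 0.10). The 8 genes of stress response kinases and phosphatase subunits had a median of -0.03, with 0 at an unadjusted p under 0.05 in either direction. The 14 genes of amino acid sensing upstream of mTORC1 had a median of -0.02. At an unadjusted p under 0.05, 1 was lower (7.14%, close to the 7.42% of rows), Rragb (-0.25).

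**Figure D5:**
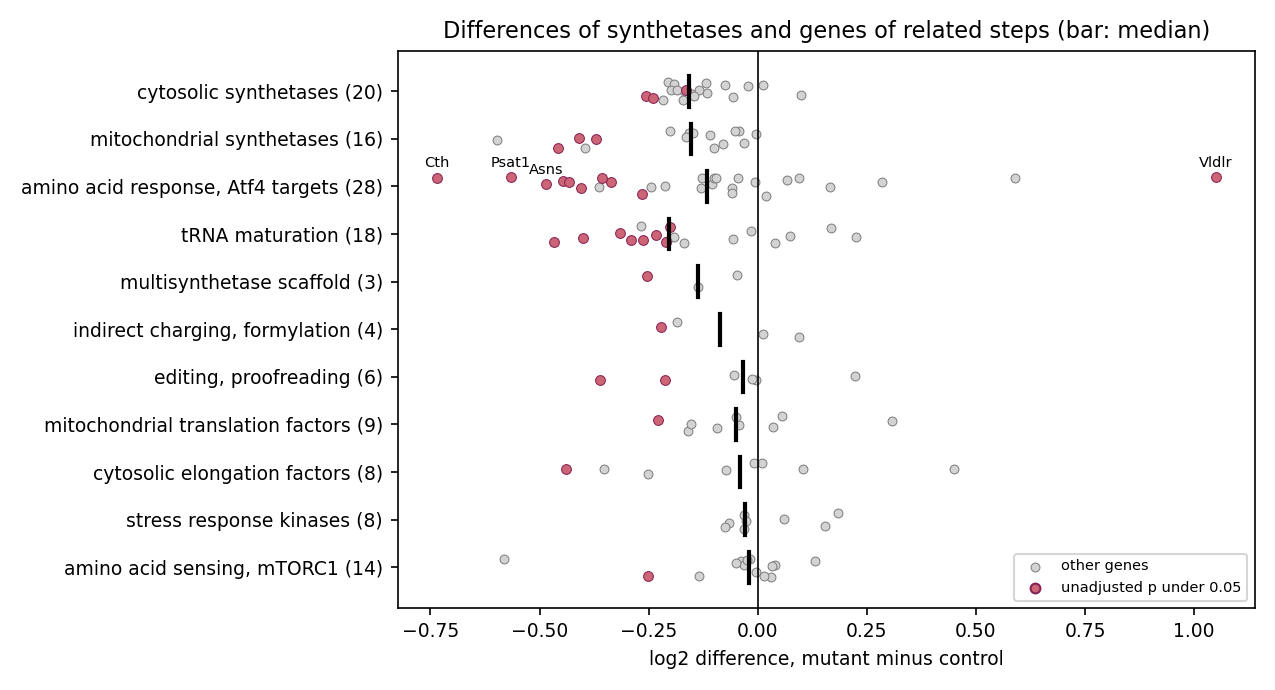
Difference of each gene (mutant minus control, log2) in the 2 synthetase classes and in 9 lists of related steps, with the number of genes in brackets, the median as a bar and genes with an unadjusted p under 0.05 in colour. The medians run from -0.20 (tRNA maturation) to -0.02 (amino acid sensing), and Vldlr stands at 1.05.

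Markers of cell types also differed between the groups. The 10 markers of dorsal forebrain progenitors had a median of -0.03. At an unadjusted p under 0.05, 4 of the 10 were lower, beside 7.42% of rows, and 2 were higher, beside 9.47%. The same 4 and 2 were lower and higher without overlap, beside 11.9% and 12.9% of rows. Emx2 (-0.92), Emx1 (-0.81), Lhx2 (-0.58) and Otx1 (-0.48), transcription factor genes of the pallium, had the lower levels in the mutants, and Fabp7 (1.39), a lipid-binding protein of radial glia, and Pax6 (0.33) the higher. None of them passed the adjusted p. All 11 neuronal markers had positive differences, with a median of 0.48, while 45% of all rows were negative. At an unadjusted p under 0.05, 6 of them were higher (54.5%, beside 9.47% of rows), and 5 were higher without overlap (45.5%, beside 12.9%). The median deviation of these markers was 0.09, 0.49 and 0.69 in mutants 1, 2 and 3 and from -0.10 to 0.08 in the controls, so mutant 1 was level with control 1 (0.08). In mutants 1, 2 and 3, the synthetase medians were -0.15, -0.18 and -0.08 (cytosolic) and -0.21, -0.20 and -0.06 (mitochondrial). All 10 markers of proliferating cells had negative differences, beside 45% of rows, with a median of -0.05. Only 1 was lower at an unadjusted p under 0.05 (10.0%), close to the 7.42% of rows. The 9 erythroid markers measured had a median of -0.34, with mutant 3 at -0.90 and the other 5 embryos between -0.06 and 0.12, and the 8 microglial markers had one of -0.30. The meningeal median was 1.04 in mutant 1, -0.25 in mutant 2 and -0.72 in mutant 3, and the endothelial median was 0.18, 0.08 and -0.40 in the same embryos and between -0.12 and 0.11 in the controls. The part of progenitors, neurons and proliferating, erythroid, microglial, meningeal and endothelial cells in the synthetase values was not tested.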

How the data were processed

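The authors deposited 1 scanner file per array with spot intensities (1-colour, array design 026655, read by version 10.7.3.1 of Feature Extraction, per the file headers). In the processed signal, per the file headers, background was subtracted within each array, with no step between arrays. For 27269 probes, the deposited table of the series gives the authors' log2 values, log2 ratio, p-value and fdr, with fdr NA for 15786. How it was normalized is not stated by any source used here, and the submitters' processing notes name limma without a role. Its columns were used by group only, since their numbers do not follow the titles (its mutant 1 correlated best with the array of mutant 2, r = 0.904).

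After removal of outlier spots, repeat spots were averaged per probe, and the log2 signal was taken relative to the array's 75th percentile. Of 39429 probes, 26849 were well above background on 3 or more of the 6 arrays and were kept, and 92 probes without a value on an array were left out. The brightest probe per gene was used. The comparison of mutant with control used limma 3.58.1 (lmFit, eBayes) under R 4.3.3 over all 21224 rows, with Benjamini-Hochberg adjustment and a two-sided threshold of 0.05, and the fit was tested on simulated data. Python 3.11.15 made summaries and figures. With 3 embryos a group, their number limits the precision.

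The synthetases were found by the array maker's symbol column of the authors' table, since the table's other symbol column names 21 of the 36. Together they have 45 kept probes, 43 with a negative difference, and of 9 genes with a pair of probes only Wars has opposite signs. Probe positions are those of the table (mm9). The members, the lists and the naming rule were chosen with earlier results of these data known. By that rule, values in every embryo are given for genes with an unadjusted p under 0.05, the brightest gene of each class and the 3 pairs that differ most, and up to 3 genes of each list are named. Sars, Aars, Wars, Lars2, Wars2, the other lower genes of the amino acid response, Psph, Atf4, Ddit3, the genes of the response with a promoter match and the progenitor markers were chosen for mention after their values were seen.

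Litters, named in the titles, pair each control with a mutant. Within litters, the deviations from the group means had correlations of 0.310, 0.359 and 0.109, and between litters of -0.411 to 0.106. Alternatives were normexp background correction (offset 50, on median signal and background), quantile normalization, median centring, a filter on all 6 arrays or none, the mean of a gene's probes, the authors' log2 values, litter or slide as a block, trend and robust variance, an adjusted p under 0.1, omission of each embryo, and, added after seeing the data, slide 2 alone.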

Additional observations from a re-analysis of the deposited data

How the results depend on the processing

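Both class medians stayed negative under all 17 alternatives. The number of synthetase genes past the adjusted threshold was 0, except 1 (Yars2) with normexp background correction and 1 (Yars2) with trend and robust variance, and it stayed 0 at an adjusted p under 0.1 (0.372% of rows). The count lower at an unadjusted p under 0.05, 6 as reported, was 13 with median centring, 12 in the authors' log2 values and 13 with trend and robust variance, and from 3 (without control 3) to 6 when 1 embryo was left out. With litter as a replicate block it was 9 (7.54% of rows), 0 synthetase genes passed the adjusted threshold, as without the block, the medians stayed at -0.16 and -0.15, and of all rows 0 passed in place of 7. With median centring the medians were -0.24 (cytosolic) and -0.24 (mitochondrial), beside -0.06 over all rows, and with normexp -0.15 and -0.09. Leaving out 1 embryo gave -0.19 to -0.13 for the cytosolic and -0.21 to -0.12 for the mitochondrial median.

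Of 611 values of single synthetase genes, 588 kept their direction and 23, in 7 genes, did not. Aars was 0.0073 with quantile normalization and 0.017 in the authors' values, and -0.077 to 0.010 when 1 embryo was left out, as were the ranges that follow. Wars was -0.075 with median centring, -0.012 as the mean of its probes and -0.099 on slide 2 alone, and -0.12 to 0.16 by embryo. Lars2 was 0.66 on slide 2 alone and -0.47 to 0.42 by embryo. Nars2 was 0.098 with normexp and 0.020 on slide 2 alone. Sars2 was 0.046 with normexp and 0.040 in the authors' values, and -0.056 to 0.062 by embryo. Pars2 was -0.10 to 0.024 and Wars2 was -0.50 to 0.29 by embryo. The cause of these changes was not tested. Dim probes such as those of Nars2 and Mars2 limit what can be said of them.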
